A study of Mus musculus with 18 samples.

Results

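Notch signaling was examined through 10 genes of the 25239 in the expression table: the ligand genes Dll1, Dll3, Jag1 and Jag2, the receptor genes Notch1, Notch2 and Notch3, and the genes Hes1, Hes6 and Rest, which act downstream of or around the pathway. The list was chosen with earlier results of these data known. Its members were taken by gene symbol, and each had a row in the table. Of the 10, 9 passed the filter on low values (1 TPM in 3 or more samples) and entered the tests, Notch3 through its Restored libraries alone, and Dll3 did not.

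The samples were RNA-sequencing libraries of 3 mouse small cell lung cancer (SCLC) lines of the Type D class, named 4711-1, 4711-18 and 4716-11. Each line came from an individual tumour of a Rb1 fl/fl; Trp53 XTR/XTR; Rbl2 fl/fl; Rosa26 FlpO-ER mouse given an adenovirus carrying CMV-driven Cre, so all groups shared the loss of Rb1 and Rbl2. In Control cells, treated with vehicle, a gene trap kept p53 off, and in Restored cells 500 nM 4-hydroxytamoxifen (4-OHT) for 72 h removed the trap. Each line carried LentiCRISPRv2 with the control guide sgBgal, or with sgPpia#3.2 or sgPpia#4.1, which target the gene of cyclophilin A, giving 6 groups with 1 library of each line (n = 3). Lines 4711-1 and 4711-18 share a prefix, and whether they came from 1 mouse was not stated. Every 4-OHT-treated library came from cells that carried the trap, so effects of 4-OHT and of p53 cannot be told apart here. In bulk libraries a change in the share of cells that express a gene and a change in its RNA per cell cannot be told apart either.

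Notch receptors are cut after a Delta-like or Jagged ligand on a neighbouring cell binds them, and the freed intracellular part joins the DNA-binding protein RBPJ to switch on genes such as Hes1. HES1 is a repressor that holds back neuronal and neuroendocrine genes, HES6 is a family member that opposes HES1, and REST is a repressor of neuronal genes. In SCLC, Notch activity is known for turning neuroendocrine cells toward a non-neuroendocrine state, and DLL3 is known as a ligand that hinders signaling within its own cell.

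The labels were checked first. Trp53 lay at 5.45 to 8.41 TPM (transcript abundance, reads scaled by gene length and by library total) in the 9 Control samples and at 181 to 236 TPM in the 9 Restored samples. Ppia was 2709 ± 137 TPM (mean ± s.d., n = 3) in sgBgal Control cells, 979 ± 287 TPM with sgPpia#3.2 and 1783 ± 147 TPM with sgPpia#4.1, without overlap between sgBgal and either guide. In Restored cells it was 2114 ± 591, 958 ± 243 and 1545 ± 309 TPM in that order, where sgBgal and sgPpia#4.1 overlapped, so the transcript was still present in all groups. Recovered reads, described under the processing, summed to between 43311529 and 76075595 per library. One library stood apart: the 4711-18 Control library with sgPpia#3.2 had 369 TPM of Cdkn1a, a p53 target, where the other 8 Control samples had 99.4 to 171 TPM. Of 8 neuroendocrine marker genes, Calca, Chga and Neurod1 stayed under 0.5 TPM in all 18 samples and Uchl1, Syp, Ncam1 and Insm1 reached 1 TPM, Insm1 in 4711-1 alone. The summed level of the 8 was 16.1 to 30.6 TPM in Control and 16.0 to 37.5 TPM in Restored cells, of which Ncam1 made up 6.90 to 29.7 TPM. Of 6 leukocyte markers, Cd68 was the one that reached 1 TPM, and the summed level of the 6 went from 2.34 to 7.19 TPM in Control to 21.7 to 39.9 TPM in Restored cells. The other 5 summed to 0.0563 to 0.342 TPM in Control and 0.0872 to 0.709 TPM in Restored cells. The 8 fibroblast markers summed to at most 1.22 TPM, the 4 endothelial markers to at most 1.51 TPM and the 3 tuft markers to at most 3.22 TPM. The part of Cd68-expressing or other cells in the member results was not tested.

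After p53 restoration, Notch3 and Hes6 were called higher with each of the 3 sgRNAs, and Hes1 with both sgPpia guides. Hes1 was also higher in all 3 lines with sgBgal, without a call. Notch3 entered the tests through the group where it was high, so its calls rest on the filter, and without a filter Notch3 was called with sgBgal only and Hes1 with neither sgPpia guide. No member fell. No member's response was called different between a sgPpia guide and sgBgal. A call is an adjusted p under 0.05 by limma with Benjamini-Hochberg adjustment over 12828 genes and a change of at least 1 on the log2(TPM + 1) scale, which understates the change of genes with low TPM. By that rule 2 of the 9 tested members rose with sgBgal, where 5.46% of all tested genes rose (7.64% were called in either direction). With sgPpia#3.2, 3 of 9 rose against 4.44% of all genes (5.75% called), and with sgPpia#4.1, 3 of 9 against 4.3% (6.09% called). Without Notch3 the counts were 1, 2 and 2 of 8. With the cell line as a block, 4, 5 and 5 of 9 were called, Jag2 and Notch1 joining with each sgRNA, where 7.7%, 6.4% and 6.26% of genes were called higher. The median change of the 9 was 0.89, 1.07 and 1.09 log2 units with sgBgal, sgPpia#3.2 and sgPpia#4.1, where the median of all tested genes was 0.19, 0.17 and 0.15. The member changes are to be read against that general shift. Since the members were chosen with earlier results of these data known, these shares and medians describe the list and do not test it. After rescaling by the median of ratios the median gene stood at -0.01, -0.01 and 0.00, and the genes called with sgBgal went from 701 higher and 279 lower to 479 higher and 391 lower. The splits were 570 and 168 against 413 and 243 with sgPpia#3.2, and 552 and 229 against 414 and 296 with sgPpia#4.1.

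**Figure D1:**
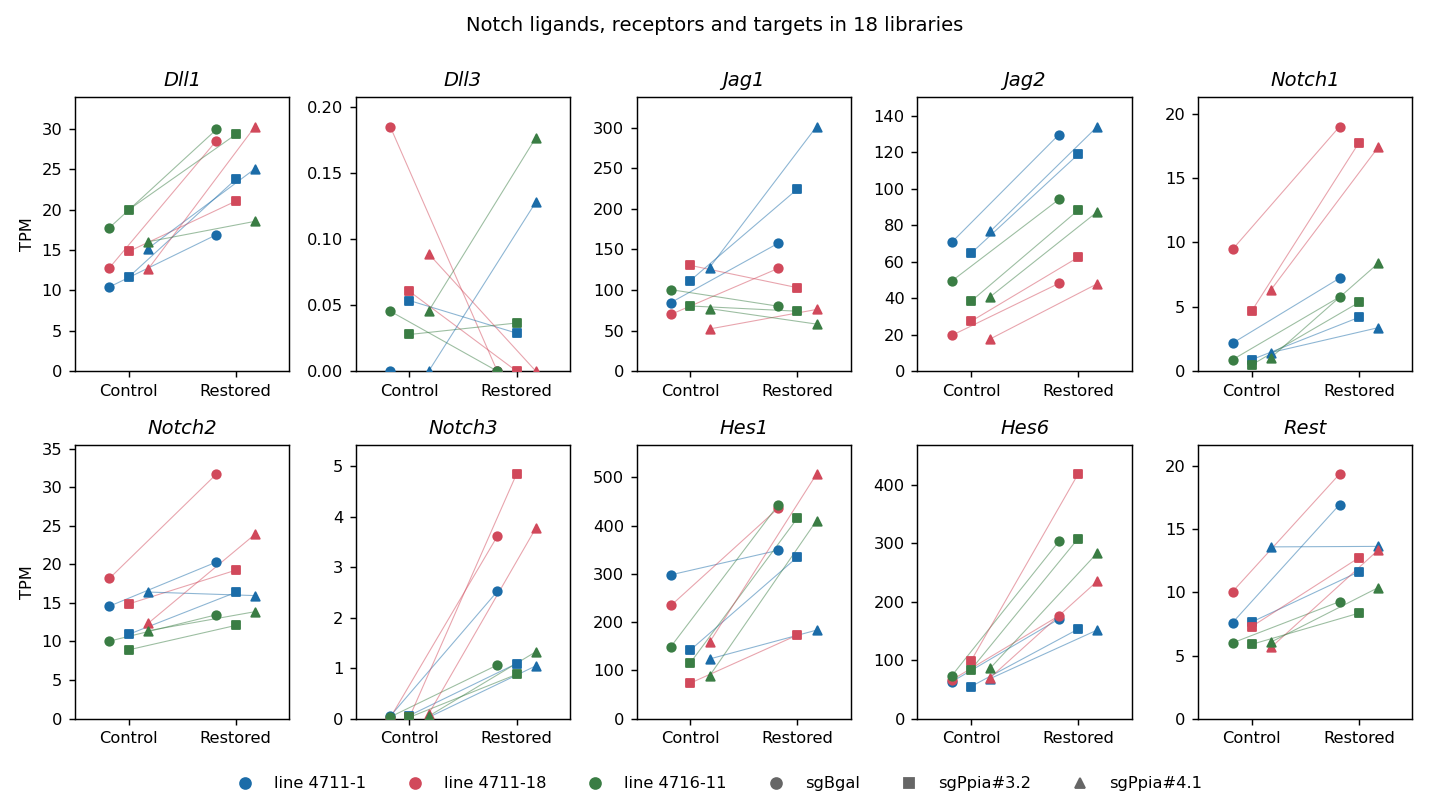
TPM (linear axes from 0) of the 10 members in Control and Restored cells, 1 point per library, with the line given by colour, the sgRNA by shape, and lines joining the Control and Restored libraries of 1 line and sgRNA. All 9 Restored points lie above all 9 Control points for Notch3 and Hes6, while Jag1 goes up in 4711-1 and down in 4716-11.

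The 250 bases upstream of the annotated start were searched for 4 motifs on both strands, as a description, because 7 of the 10 members (Dll1, Jag2, Notch1, Notch3, Hes1, Hes6 and Rest) were higher in all 9 Restored libraries than in the matched Control, as were 30.8% of tested genes. The sequences are from a set of RefSeq start windows on GRCm38.p6, which held 10 windows of 8 members, among them 2 each for Dll1 and Hes6. Hes1 and Rest had no window in that set and were not searched. The motifs were the RBPJ core TGGGAA, the E box CACGTG, the N box CACNAG bound by HES proteins, and the p53 half-site. In all 32817 start windows of the set they occurred in 21.6%, 6.02%, 36.7% and 7.12%. Of the 10 windows searched, 4 held an N box, those of Notch1, Notch2, Notch3 and Hes6, and none held the other 3 motifs. The other Hes6 window and those of Dll1 and Jag2 held none of the 4. The windows of Notch3, Hes6 and Notch1 are shown with the N box in capitals, read 5′ to 3′ on the minus strand. Notch3 is at chr17:32166891-32167140, with matches starting 204 and 159 bases before the start. Hes6 is at chr1:91413223-91413472, with a match 237 bases before its start. Notch1 is at chr2:26503823-26504072, with a match 108 bases before its start.
Notch3: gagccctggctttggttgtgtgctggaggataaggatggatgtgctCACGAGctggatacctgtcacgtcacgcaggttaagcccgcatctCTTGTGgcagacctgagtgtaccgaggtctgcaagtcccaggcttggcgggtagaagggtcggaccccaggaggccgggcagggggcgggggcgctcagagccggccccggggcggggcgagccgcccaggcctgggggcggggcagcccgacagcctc
Hes6: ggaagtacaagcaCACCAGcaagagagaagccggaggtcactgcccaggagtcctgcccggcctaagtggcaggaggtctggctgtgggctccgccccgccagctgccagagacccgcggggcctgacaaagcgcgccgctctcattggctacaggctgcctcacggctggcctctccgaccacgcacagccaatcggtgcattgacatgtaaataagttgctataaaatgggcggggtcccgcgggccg
Notch1: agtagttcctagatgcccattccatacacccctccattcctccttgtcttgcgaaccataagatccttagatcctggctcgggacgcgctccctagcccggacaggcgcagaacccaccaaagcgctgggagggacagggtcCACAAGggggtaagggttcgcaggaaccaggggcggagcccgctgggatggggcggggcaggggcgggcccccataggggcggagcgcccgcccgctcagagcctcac

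TPM is scaled by gene length, so levels can be set side by side. In Control cells the medians over 9 libraries ran from Hes1 (142 TPM) through Jag1 (84.6 TPM), Hes6 (70.1 TPM), Jag2 (40.8 TPM), Dll1 (14.8 TPM), Notch2 (12.3 TPM), Rest (7.30 TPM) and Notch1 (1.44 TPM) to Dll3 (0.0456 TPM) and Notch3 (0.0325 TPM). Neighbours in that order overlapped in range, except that every Notch1 value lay above every Dll3 value. In Restored cells Hes1 (410 TPM) still came first and Hes6 (235 TPM) stood above Jag1 (103 TPM), with overlapping ranges. Jag2 (88.3 TPM), Dll1 (25.1 TPM), Notch2 (16.4 TPM), Rest (12.8 TPM), Notch1 (7.22 TPM) and Notch3 (1.32 TPM) followed, and Dll3 had a median of 0. There the ranges of Jag2 and Dll1 did not overlap, nor did those of Notch3 and Dll3.

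Among the ligands, none was called by limma or limma-voom in any comparison without the cell line in the model. With the line as a block, limma called Jag2 higher after restoration with each sgRNA. Dll1 had an unadjusted p under 0.05 with each of the 3 sgRNAs by limma, and with sgBgal alone by limma-voom or after rescaling. Dll1, a Delta-like ligand that activates receptors on neighbouring cells, was 10.4, 12.8 and 17.8 TPM in sgBgal Control cells of 4711-1, 4711-18 and 4716-11 and 16.9, 28.6 and 29.9 TPM in their Restored counterparts. With sgPpia#3.2 it was 11.6, 14.8 and 20.0 TPM in Control and 23.8, 21.1 and 29.3 TPM in Restored cells, and with sgPpia#4.1 it was 15.2, 12.6 and 16.0 TPM in Control and 25.1, 30.3 and 18.6 TPM in Restored cells. All 9 Restored libraries were above their own Control library, as in 30.8% of tested genes. The sgPpia#3.2 and sgPpia#4.1 groups did not overlap between the states, as in 19.1% and 17.8% of genes, while the sgBgal groups did. The change was 0.82 ± 0.27 (log2, ± SE) with sgBgal, 0.66 ± 0.27 with sgPpia#3.2 and 0.70 ± 0.27 with sgPpia#4.1, under the size needed for a call, with limma adjusted p = 0.0529, 0.141 and 0.116.

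Dll3 was at the edge of detection. It had 0 to 10 reads per library and at most 0.185 TPM, with 29 reads over the 9 Control and 20 over the 9 Restored libraries. No fold change is given, since most libraries were at or near 0.

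Jag1, the Jagged ligand with the higher median level in both states, went in different directions by line. In 4711-1 it went from 84.6 to 158 TPM with sgBgal, from 112 to 224 TPM with sgPpia#3.2 and from 128 to 302 TPM with sgPpia#4.1. In 4716-11 it went from 100.5 to 80.1 TPM, from 80.3 to 73.9 TPM and from 77.1 to 58.0 TPM in the same order. In 4711-18 it went from 70.0 to 127 TPM and from 52.0 to 76.0 TPM with sgBgal and sgPpia#4.1, and from 130 to 103 TPM with sgPpia#3.2, whose Control library is the one that stood apart. Jag1 was thus higher after restoration in every 4711-1 pair and lower in every 4716-11 pair, 5 of 9 pairs being higher in all. How many of all tested genes split by line in this way was not counted. Averaged over the lines the changes were 0.47 ± 0.54, 0.18 ± 0.54 and 0.46 ± 0.54 (log2, ± SE), with limma adjusted p = 0.624, 0.894 and 0.672. The sgPpia#3.2 value turned to -0.02 after rescaling and to -0.23 without 4711-1, and was 0.33 without the library that stood apart.

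Jag2, the other Jagged ligand, had 19.6, 49.4 and 70.7 TPM in sgBgal Control cells of 4711-18, 4716-11 and 4711-1, and 48.1, 94.2 and 130 TPM after restoration. With sgPpia#3.2 it went from 27.3, 38.3 and 64.6 TPM to 62.4, 88.3 and 119 TPM in the same line order, and with sgPpia#4.1 from 17.7, 40.8 and 76.7 TPM to 48.0, 87.5 and 134 TPM. The order of the lines was the same in all 6 groups, and every line was 1.75 to 2.72 times its Control level. Within both states 4711-1 lay above the other lines, as 6.03% of all tested genes did, and 4711-18 below them, as 4.65% did. The changes were 1.01 ± 0.58, 1.07 ± 0.58 and 1.09 ± 0.58 (log2, ± SE) with limma adjusted p = 0.273, 0.285 and 0.270. With the cell line as a block, which takes the differences among lines out of the spread, Jag2 was called with each sgRNA (limma adjusted p = 8.0e-04, 6.5e-04 and 5.5e-04).

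Among the receptors, Notch3 was called with each sgRNA among the filtered genes but with sgBgal only when no filter was set, and Notch1 was called with all 3 only once the lines were in the model. Notch3, a receptor best known from vascular smooth muscle, was close to absent in Control cells, at 0.0149 to 0.0955 TPM, and reached 0.877 to 4.85 TPM in Restored cells. With sgBgal it went from 0.0469 to 2.52 TPM in 4711-1, from 0.0149 to 3.61 TPM in 4711-18 and from 0.0325 to 1.06 TPM in 4716-11. With sgPpia#3.2 the Restored levels were 1.09, 4.85 and 0.877 TPM in that line order, and with sgPpia#4.1 they were 1.05, 3.78 and 1.32 TPM. In Restored cells 4711-18 had the highest Notch3 with each sgRNA, and no Restored library overlapped any Control library, which held for 8.12% of tested genes. The reads behind these values were 3 to 17 per Control library (83 in all) and 179 to 994 per Restored library (3785 in all). The ratio of mean TPM, Restored over Control, with sgBgal was 76.2, next to 59.6 for sgPpia#3.2 and 36.1 for sgPpia#4.1, and since the Control level rested on 19, 29 and 35 reads per group these ratios carry a wide counting error. By line the ratio ran from 32.6 to 242 with sgBgal, from 17.9 to 179 with sgPpia#3.2 and from 27.0 to 40.4 with sgPpia#4.1. Without 4711-18 the ratios of means were 45.0, 22.6 and 31.6, and without 4711-1 the sgPpia#3.2 ratio was 108. On the log2(TPM + 1) scale, where these low Control levels count for little, the changes were 1.64 ± 0.40, 1.45 ± 0.40 and 1.42 ± 0.40 (± SE, n = 3 lines per group), with limma adjusted p = 0.0137, 0.0308 and 0.0340. All 9 Control libraries were under the 1 TPM of the filter, which Notch3 passed through Restored libraries alone, and with no filter the limma adjusted p was 0.0262, 0.0574 and 0.0623. A limma-voom fit to the recovered reads of the same filtered genes gave 5.93 ± 1.13, 5.32 ± 1.08 and 4.96 ± 1.04 (log2, ± SE), with adjusted p = 0.0036, 0.0058 and 0.0077. Without 4711-1 or without 4716-11 no Notch3 comparison passed, and without 4711-18 the sgPpia#3.2 comparison did not (limma adjusted p = 0.0525), nor did it without the library that stood apart (limma adjusted p = 0.0660), while the direction held in all 9 line pairs.

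Notch1, the founding receptor of the mammalian family, had a lower level in 4711-1 and 4716-11 than in 4711-18 in both states. Control levels in 4711-1, 4711-18 and 4716-11 were 2.17, 9.45 and 0.890 TPM with sgBgal, 0.890, 4.68 and 0.494 TPM with sgPpia#3.2 and 1.44, 6.32 and 1.05 TPM with sgPpia#4.1. Restored levels were 7.22, 19.0 and 5.76 TPM, 4.17, 17.7 and 5.33 TPM, and 3.37, 17.4 and 8.37 TPM in the same order. Each Restored library exceeded its own Control, by 2.01 to 10.8 times, and 4711-18 lay above the other lines within both states, as 9.42% of tested genes did. The changes were 1.38 ± 0.77, 1.75 ± 0.77 and 1.45 ± 0.77 (log2, ± SE), and with limma adjusted p = 0.261, 0.181 and 0.270 none was called. With 4711-18 left out, Notch1 was called with sgBgal and sgPpia#3.2 (limma adjusted p = 0.0406 and 0.0297) and not with sgPpia#4.1 (0.0643). With the cell line as a block the changes over all lines were called with each sgRNA (limma adjusted p = 0.0012, 2.7e-04 and 9.8e-04).

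Notch2, the receptor with the highest level in both states, was the least changed of the 3. It lay between 8.91 and 18.2 TPM in Control cells and between 12.1 and 31.7 TPM in Restored cells, with overlapping ranges. The level was higher after restoration in 8 of 9 pairs, the exception being 4711-1 with sgPpia#4.1 (16.4 against 15.9 TPM). The changes of 0.54 ± 0.31, 0.43 ± 0.31 and 0.37 ± 0.31 (log2, ± SE) had limma adjusted p = 0.279, 0.445 and 0.514.

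**Figure D2:**
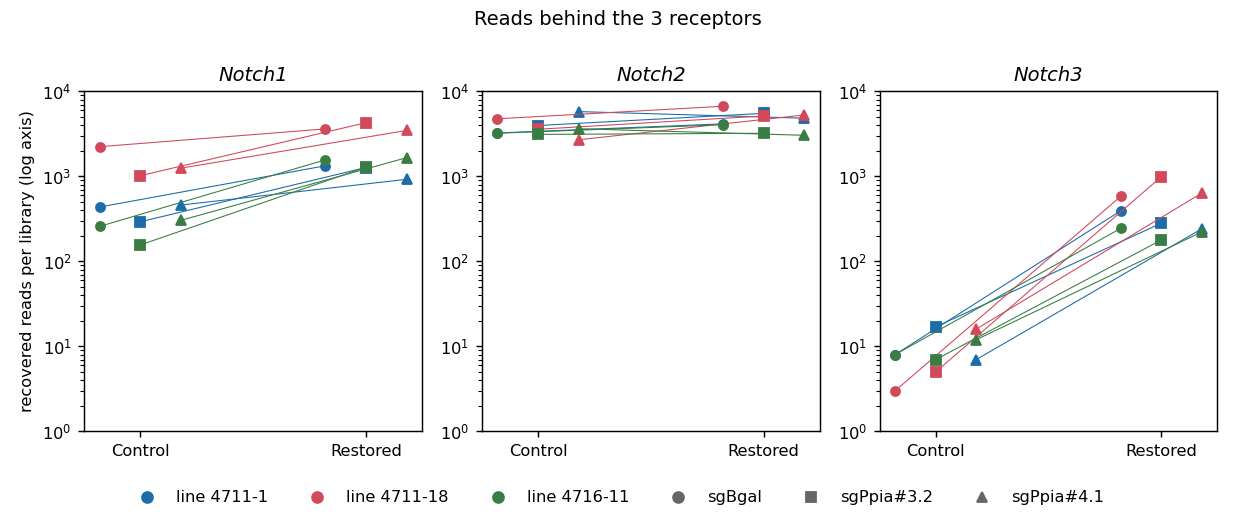
Recovered reads per library (log axis) of the 3 receptor genes in Control and Restored cells, with colour for the line and shape for the sgRNA. Notch3 lies at 3 to 17 reads in Control and at 179 to 994 reads in Restored libraries, Notch1 at 156 to 2237 and 924 to 4285 reads, and Notch2 at 2697 to 5793 and 3046 to 6695 reads.

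Among Hes1, Hes6 and Rest, Hes6 was called with each sgRNA. Hes6 was 62.9, 66.0 and 73.2 TPM in sgBgal Control cells of 4711-1, 4711-18 and 4716-11 and 170, 176 and 303 TPM in Restored cells. With sgPpia#3.2 it went from 54.8, 98.6 and 83.8 TPM to 153, 418 and 308 TPM, and with sgPpia#4.1 from 68.5, 70.1 and 86.3 TPM to 152, 235 and 283 TPM. The lowest Restored library (152 TPM) lay above the highest Control library (98.6 TPM), as in 8.12% of tested genes, and each line was 2.21 to 4.24 times its own Control. The changes were 1.62 ± 0.35, 1.80 ± 0.35 and 1.52 ± 0.35 (log2, ± SE) with limma adjusted p = 0.0072, 0.0042 and 0.0117. Without 4711-18 or without 4716-11, the Hes6 comparisons did not pass (limma adjusted p = 0.0551 to 0.174). Those fits left 2 samples per group, and fewer of all genes were called in them as well.

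Hes1, the most abundant of the members and the usual readout of receptor activity, was higher after restoration with each sgRNA. It was called with the sgPpia guides only. With sgBgal it went from 298, 234 and 149 TPM in Control to 349, 436 and 442 TPM in Restored cells of 4711-1, 4711-18 and 4716-11. With sgPpia#3.2 it went from 142, 73.4 and 115 TPM to 335, 173 and 415 TPM, and with sgPpia#4.1 from 124, 158 and 88.4 TPM to 183, 507 and 410 TPM. Restored groups lay above Control groups without overlap for each sgRNA, as in 22.1% (sgBgal), 19.1% and 17.8% of genes, but the Restored range of 173 to 507 TPM overlapped the Control range of 73.4 to 298 TPM over all 9. The rise was smallest in 4711-1 and largest in 4716-11, averaging 0.67 and 1.87 log2 units over the sgRNAs, and this difference between lines was not tested. The changes were 0.89 ± 0.41 with sgBgal, 1.43 ± 0.41 with sgPpia#3.2 and 1.48 ± 0.41 with sgPpia#4.1 (log2, ± SE), with limma adjusted p = 0.165, 0.0388 and 0.0326. Both sgPpia calls were lost after rescaling (limma adjusted p = 0.0777 and 0.0601) and by limma-voom on recovered reads (adjusted p = 0.0616 and 0.0517) and with no filter (limma adjusted p = 0.0707 and 0.0612), and the sgPpia#3.2 call also without the library that stood apart (limma adjusted p = 0.118). Leaving out 1 line at a time, the sgPpia calls held only for sgPpia#4.1 without 4711-1 (limma adjusted p = 0.0469).

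Rest lay between 5.65 and 13.6 TPM in Control cells and between 8.36 and 19.4 TPM in Restored cells. It was higher in all 9 pairs on the TPM scale and in 8 of 9 after rescaling, where 30.8% and 20.8% of tested genes were higher in all 9. The smallest rise was in 4711-1 with sgPpia#4.1, at 13.6 and 13.7 TPM. The changes of 0.83 ± 0.31, 0.57 ± 0.31 and 0.60 ± 0.31 (log2, ± SE) were under the size needed for a call, with limma adjusted p = 0.0908, 0.287 and 0.255. Of 12 neuronal genes that REST represses, 7 were tested and 0 were called by limma with any sgRNA, 0 having an unadjusted p under 0.05, where 28.5%, 23.8% and 24.4% of all tested genes had one with sgBgal, sgPpia#3.2 and sgPpia#4.1. The same counts held for the 4 genes of REST corepressors. With 7 and 4 genes, 0 called lies near the 5.75% to 7.64% called among all genes. With the line as a block 0 were called in either list, and 2, 1 and 1 of the repressed genes had an unadjusted p under 0.05, where 50.6%, 45.1% and 45.5% of all genes did. Limma-voom also called 0 in either list, next to 959, 761 and 743 of the 12828 genes with sgBgal, sgPpia#3.2 and sgPpia#4.1. In that order 0, 0 and 0 of the repressed genes and 0, 1 and 0 of the corepressor genes had an unadjusted p under 0.05. Of all genes 3360, 3005 and 2946 had one.

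**Figure D3:**
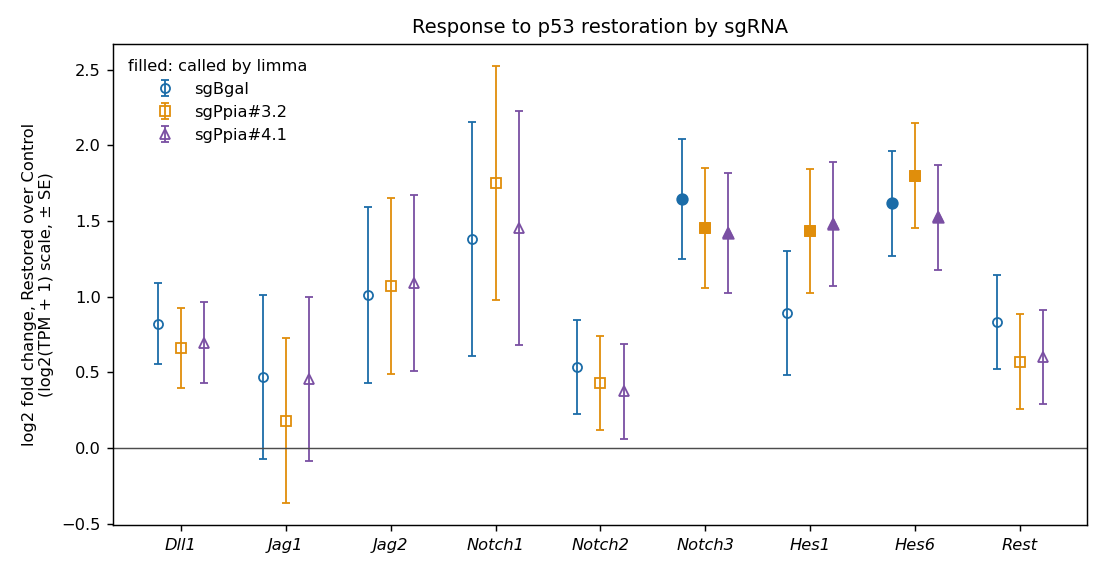
Log2 fold change, Restored over Control, on the log2(TPM + 1) scale for the 9 tested members, with the limma standard error as bars and 1 point per sgRNA, filled where called. Notch3 and Hes6 are filled for each of the 3 sgRNAs and Hes1 for sgPpia#3.2 and sgPpia#4.1, and Notch1 has the widest bars (SE 0.77).

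**Figure D4:**
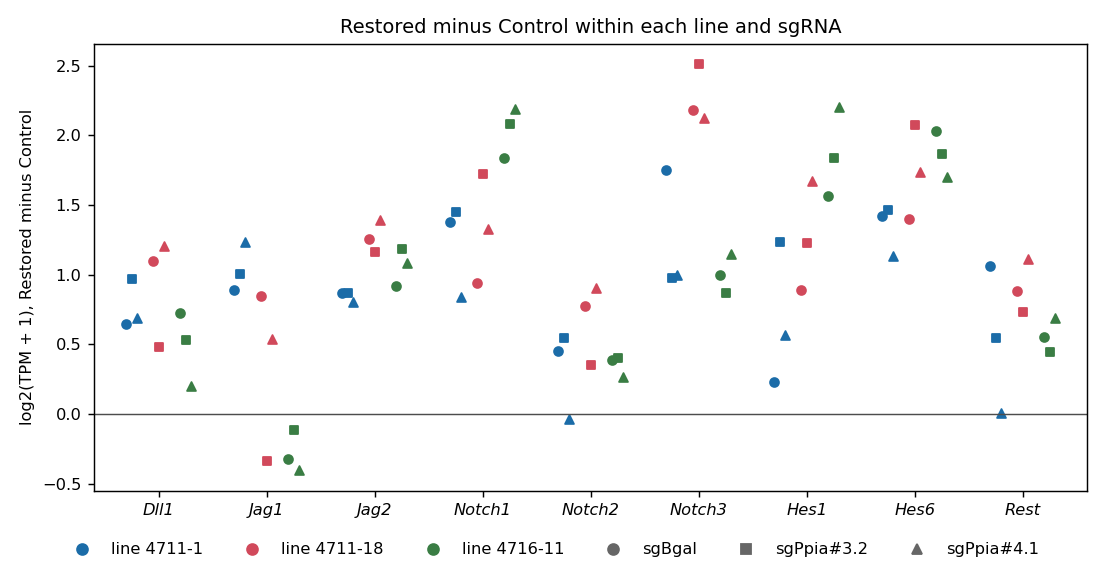
Restored minus Control on the log2(TPM + 1) scale for each line (colour) and sgRNA (shape), 9 points per gene. Jag1 is the one gene plotted with all 3 points of a line below 0 (4716-11, mean -0.28) and all 3 of another above (4711-1, mean 1.04).

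The sgPpia guides were then compared with sgBgal within each state. No gene of the 12828 was called in any of the 4 comparisons or in the 2 comparisons of the restoration response by limma (0% of tested genes), and the numbers at an unadjusted p under 0.05 were 311, 27, 154 and 68 for sgPpia#3.2 and sgPpia#4.1 in Control and in Restored cells, and 31 and 18 for the response. By limma-voom none was called either, where 261, 23, 115, 36, 19 and 12 had an unadjusted p under 0.05. Once the cell line was a block, limma called Ppia and Muc1 lower with sgPpia#3.2 in Control cells (adjusted p = 0.0015 and 0.0381) and Ppia lower in Restored cells (adjusted p = 0.0431), and 0 genes in the other 4 comparisons, the unadjusted counts being 1628, 162, 1108, 424, 175 and 80. Neither called gene was a member. On the log2(TPM + 1) scale the member with the largest difference was Hes1 in Control cells, while by limma-voom Notch1 with sgPpia#3.2 lay further from 0 (-1.06 ± 1.14 against -0.96 ± 0.42, log2, ± SE). Notch1 also did so without the library that stood apart (-1.24 against -0.77). That fit took 4711-18, the line with the highest Notch1, from sgPpia#3.2 Control alone. Its order of the 2 genes thus also carries differences among lines. In Control cells Hes1 was at 227 ± 74.6 TPM with sgBgal against 110 ± 34.5 TPM for sgPpia#3.2 and 123 ± 34.8 TPM for sgPpia#4.1 (mean ± s.d., n = 3). The level was lower than in sgBgal cells in 3 of 3 lines with each guide, as were 29.1% and 16.4% of tested genes, by -1.03 ± 0.41 and -0.86 ± 0.41 (log2, ± SE) with limma adjusted p of 1.00 for each and unadjusted p = 0.0240 and 0.0538. In Restored cells Hes1 was at 409 ± 52.2 (sgBgal), 308 ± 123 (sgPpia#3.2) and 367 ± 166 TPM (sgPpia#4.1). The excess of the Hes1 response with the guides over that with sgBgal was 0.54 ± 0.58 and 0.59 ± 0.58 (log2, ± SE), within its error. For Notch3 the response differed from that with sgBgal by -0.19 ± 0.56 and -0.22 ± 0.56, and for Hes6 by 0.18 ± 0.49 and -0.09 ± 0.49 (log2, ± SE), all limma adjusted p being 1.00. Without the library that stood apart the sgPpia#3.2 differences were 0.28 for Hes1 and 0.36 for Hes6. Line 4711-18 stayed in the other groups there, so these values also carry differences among lines. Within 4711-1 and 4716-11, Hes6 rose by 1.46 and 1.86 with sgPpia#3.2 against 1.42 and 2.03 with sgBgal (log2). Hes1 rose by 1.23 and 1.84 against 0.23 and 1.56 in that order. With standard errors of this size, the lack of calls does not show that the guides acted alike.

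Around the members, 43 of 53 other pathway genes passed the filter. By limma 1 was called with sgBgal and 0 with each sgPpia guide, where 7.64%, 5.75% and 6.09% of all tested genes were called. Of the 43, 6, 2 and 4 had an unadjusted p under 0.05, against 28.5%, 23.8% and 24.4% of all genes. By limma-voom on the recovered reads 2, 0 and 0 were called, Neurl1b and Lfng, a glycosyltransferase that modifies Notch receptors, with sgBgal, next to 959, 761 and 743 of the 12828 genes. Neurl1b, an E3 ligase that promotes ligand endocytosis, fell with sgBgal from 25.7 ± 6.78 to 9.21 ± 5.55 TPM (mean ± s.d., n = 3, log2 change -1.49 ± 0.39, limma adjusted p = 0.0213), and the call was lost without 4711-1 and without 4711-18. Its changes with sgPpia#3.2 and sgPpia#4.1 were -0.54 ± 0.39 and -1.21 ± 0.39, with limma adjusted p = 0.451 and 0.0636, the latter passing with the line as a block (limma adjusted p = 0.010). The median change of the 43 genes was 0.20, 0.17 and 0.13 with the 3 sgRNAs, next to 0.19, 0.17 and 0.15 for all genes. By limma on log2(TPM + 1) the genes not called with any sgRNA included the 9 tested proteases, 7 nuclear activators, 7 receptor turnover genes, 4 receptor glycosylation genes (Lfng among them) and 3 other targets.

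Of the genes whose TPM pattern over the 18 libraries was closest to a member, by Pearson r on log2(TPM + 1), those of Notch3 were Nxph3, Inka1 and Bmp8a (each 0.97), and those of Hes6 were Vkorc1 (0.98), Gnb1l (0.98) and Tmbim4 (0.97). Those of Hes1 were Zfp668 (0.94), Myo19 (0.92) and Osgin1 (0.91), those of Jag2 Vti1a (0.98), Pcdhb17 (0.97) and Ubtd1 (0.97), and those of Notch1 Ppm1f, Slc36a1 and Ttc38 (each 0.97). The points share lines and states, so these values only describe the pattern.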

How the data were processed

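RNA was sequenced from 18 libraries, and the deposited values are TPM per gene, made by the authors from reads with bcl2fastq 2.17 and HISAT2 per the labels, which name the builds mm10 and GRCm39 without a role. The study's methods name more than 1 aligner and differential tool, and the counter and annotation behind the TPM are not given in the sources used here. The TPM scale divides by gene length and by a library total, so a few strongly changed genes shift all others. The members and gene lists were chosen with earlier results of these data known.

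The 12828 genes of 25239 that reached 1 TPM in 3 or more of the 18 samples were fitted as log2(TPM + 1) with limma 3.58.1 in R 4.3.3, with a mean for each of 6 groups, moderated variances and Benjamini-Hochberg adjustment. Low TPM values of a gene were whole multiples of 1 read's worth, and the smallest whole reads per gene were recovered for all 20333 genes above 0 in at least 2 samples, to within 0.01 of a whole number. These gave 43311529 to 76075595 reads per library (median 57240414), and ratios set on few reads carry counting error. The scripts were tested on simulated data.

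The replicate number stands for the cell line. In 45 pairs of same-line samples the deviations from group means correlated at a mean r of 0.73 (lowest 0.58), so the fit with the line as a block is given where it changes a call. The lines are separate cultures of separate tumours, and nothing says that a group's libraries were repeated within a line. Alternatives were a pseudocount of 0.1, no filter, a filter of 5 TPM, median-of-ratios rescaling, leaving out each line, and, chosen after seeing the data, leaving out 1 library and limma-voom on the recovered reads.

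Of the other gene lists, 2 genes are not reported here and enter no list count. The 10 members are always named; the other pathway genes are named where called with any sgRNA, and the named markers, Lfng and Muc1 were named after their values were seen. For members called, or whose lines did not overlap, the 3 genes of highest Pearson r are given.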

Additional observations from a re-analysis of the deposited data

Results flagged for a closer look

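The response of Jag1 to p53 restoration went in opposite directions in 2 lines: it was higher after restoration with all 3 sgRNAs in 4711-1, by a mean of 1.04 log2 units, and lower with all 3 in 4716-11, by a mean of -0.28. The difference between the lines was not tested. How many of all tested genes split in this way was not counted, and the libraries of 1 line are not independent.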

How the results depend on the processing

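The counts of called members moved with the handling of the lines. Under the replicate block by cell line, 4 members were called with sgBgal and 5 with each sgPpia guide, against 2, 3 and 3 without it (3, 4 and 4 against 1, 2 and 2 when Notch3 is left out), and 1 pathway gene with sgPpia#4.1 against 0. The block raised all genes called from 980 to 1414, from 738 to 1105 and from 781 to 1177. The block changed the calls of Jag2, Notch1 and, with sgPpia#4.1, Neurl1b, and of no other member or pathway gene in the restoration comparisons. Leaving out 1 line gave 0 to 2 members with sgBgal, 0 to 1 with sgPpia#3.2 and 0 to 2 with sgPpia#4.1, each 0 being without 4716-11, and 0 to 1 pathway genes with sgBgal, each 0 being without 4711-1 or 4711-18. All genes called fell without a line as well, to between 471 and 674 from 980 with sgBgal, between 229 and 633 from 738 with sgPpia#3.2 and between 278 and 690 from 781 with sgPpia#4.1, with 2 samples left per group. Without the library that stood apart 1 member (Hes6) was called with sgPpia#3.2, while all genes called went from 738 to 794. With no filter 1 member (Hes6) was called with each sgPpia guide, Notch3 and Hes1 being lost, next to 626 and 638 of 21824 genes, and with a filter of 5 TPM 1 member was called with sgBgal, since Notch3 no longer entered. Rescaling called 1 pathway gene with sgPpia#4.1. A pseudocount of 0.1, rescaling and limma-voom each called 2 pathway genes with sgBgal against 1, Lfng being the other, next to 1119, 870 and 959 of all genes against 980. Jag1 with sgPpia#3.2 turned to -0.020 after rescaling and ran from -0.23 to 0.44 when a line was left out. The cause of these moves was not tested beyond the counts given. Of 268 alternative values of the restoration changes and the Hes1 guide changes, 230 kept their direction and their side of the threshold, 28 lost it, 8 gained it and 2 turned; of 479 alternative values of the other guide changes and response differences, 49 changed sign, and none was called. Read depth limits Dll3 and the Control level of Notch3, and 3 lines limit the rest.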
